A study of Mus musculus with 16 samples.

Results

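The 35 genes described here encode the enzymes of glycolysis, the enzymes that settle the fate of pyruvate and lactate, the hypoxia-inducible transcription factors with their oxygen-dependent hydroxylases, and a set of genes that these factors switch on. They were chosen by name, under their older or current symbols, with earlier results of these data known. A probe set naming no other gene was found for 31 of them, and 30 were bright enough to be tested among the 12508 genes tested on the arrays. The samples were whole kidneys of pups aged 7 days, 1 animal per Affymetrix array. The 9 knockout pups (Aqp11-/-, 5 male and 4 female) and the 7 wild-type pups (Aqp11+/+, 3 male and 4 female) were littermates from heterozygous parents. They came from 5 breeding pairs. All carried a C57BL/6 background after 10 to 11 back-crosses of a 129/SvEvBrd line, and no other allele or treatment is named in the labels. The knockout is present in every cell from conception, and a whole kidney mixes all renal cell types. Fewer cells of a type and less RNA per cell therefore cannot be told apart in any value below. Aqp11 encodes an aquaporin found in the endoplasmic reticulum.

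Glycolysis splits glucose into pyruvate in the cytosol. Hexokinase, phosphofructokinase and pyruvate kinase catalyse its irreversible steps. Pyruvate then either enters the mitochondrion, through a pyruvate dehydrogenase complex that the Pdk kinases switch off, or is reduced to lactate. In normal oxygen, prolyl hydroxylases (the Egln enzymes) mark HIF alpha subunits for destruction. When oxygen is low, HIF accumulates and binds a short core motif in the promoters of glycolytic, angiogenic and mitophagy genes. The mature proximal tubule makes glucose and burns fatty acids and other substrates, and uses little glycolysis, while the medulla is poor in oxygen and depends on it more.

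The promoters of 5 genes that passed the test below are printed to show where this core stands near the start of genes that were higher (Hk2, Ddit4) and lower (Bnip3, Pdk2, Egln3) in knockout. They were picked from the genes whose window holds it. The core searched was ACGTG on both strands, so CACGT marks it on the opposite strand. CACGTG, the E-box, holds the core on both strands. Windows come from RefSeq, build GRCm38.p6, and cover the 250 bases before the start site, all on the minus strand. They lie at chr6:82774455-82774704 for Hk2, chr10:59951771-59952020 for Ddit4, chr7:138909507-138909756 for Bnip3, chr11:95041372-95041621 for Pdk2 (the more upstream of its 2 windows) and chr12:54203875-54204124 for Egln3. Sequences run 5′ to 3′, and capitals mark the core or E-box.
Hk2: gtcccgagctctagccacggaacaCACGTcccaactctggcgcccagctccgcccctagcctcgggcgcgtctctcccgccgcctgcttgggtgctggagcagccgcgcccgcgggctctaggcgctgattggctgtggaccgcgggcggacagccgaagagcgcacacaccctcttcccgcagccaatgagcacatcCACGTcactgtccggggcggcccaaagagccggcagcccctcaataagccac
Ddit4: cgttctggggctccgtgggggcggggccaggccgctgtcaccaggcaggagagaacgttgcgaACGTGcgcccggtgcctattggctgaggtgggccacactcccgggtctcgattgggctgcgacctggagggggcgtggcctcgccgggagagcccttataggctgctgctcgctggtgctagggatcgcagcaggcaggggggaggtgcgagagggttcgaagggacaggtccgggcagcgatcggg
Bnip3: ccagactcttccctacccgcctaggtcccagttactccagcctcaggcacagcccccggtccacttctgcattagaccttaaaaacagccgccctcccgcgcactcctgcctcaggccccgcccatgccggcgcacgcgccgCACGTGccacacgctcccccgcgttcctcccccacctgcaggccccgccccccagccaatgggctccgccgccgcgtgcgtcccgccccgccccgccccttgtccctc
Pdk2: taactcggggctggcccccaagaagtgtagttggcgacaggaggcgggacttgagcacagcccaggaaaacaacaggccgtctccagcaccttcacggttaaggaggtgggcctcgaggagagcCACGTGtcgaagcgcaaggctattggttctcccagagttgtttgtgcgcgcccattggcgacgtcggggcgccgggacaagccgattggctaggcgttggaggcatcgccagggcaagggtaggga
Egln3: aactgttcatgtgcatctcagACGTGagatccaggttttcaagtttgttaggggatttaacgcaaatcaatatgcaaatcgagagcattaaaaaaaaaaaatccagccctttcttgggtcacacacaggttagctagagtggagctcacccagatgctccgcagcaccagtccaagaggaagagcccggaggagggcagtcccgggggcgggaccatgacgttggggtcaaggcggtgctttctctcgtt

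In Hk2 the core began 226 and 52 bases before the start. It began 187 bases before the start of Ddit4 and 229 before that of Egln3. An E-box began 108 bases before the start of Bnip3 and 126 before the more upstream start of Pdk2. The other window of Pdk2 held neither the core nor an E-box. Of the 30 tested members, 28 had a window, and 20 of these (71.4%) held the core within the 300 bases searched, 250 before and 50 after the start. Epas1 and Ndrg1 had none in the table. Over all genes tested on the arrays, 2935 of 10100 with a window held it (29.1%). The list was chosen to hold genes that HIF switches on, so a higher share among members is not an independent result. A gene may have several windows. Counted per window, the core stood in 24 of 43 windows of members (55.8%), against 25.0% of the windows of all genes tested. The core stood in 2 of the 4 members that rose, in 6 of the 7 that fell and in 12 of the 17 with a window that did not pass. Among all tested genes with a window, it stood in 27.3% of those that rose and 24.1% of those that fell. The E-box stood in 8 of the 28 members (28.6%) and in 11.6% of all genes tested. A match describes the letters of the window and is no evidence of binding.

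Aqp11 served as a check of the labels. Its log2 signal averaged 2.95 ± 0.33 (SD, n = 9) in knockout, with 7 arrays at the lower limit put on dim signals (called the floor below), and 7.87 ± 0.16 (SD, n = 7) in wild type, at least 30.3-fold lower (limma adjusted p = 3.84e-14). Array brightness, as the 2% trimmed mean signal before normalization, was 169 ± 44.9 (SD, n = 9) in knockout and 165 ± 33.4 (SD, n = 7) in wild type (exact permutation p = 0.85, two-sided). It spanned 2.12-fold over the 16 arrays, and values between arrays correlated at 0.929 to 0.987. The dimmer arrays were 5 of the 9 knockout and 3 of the 7 wild-type arrays. The dimmest array, wild-type kidney 5-1, gave the highest wild-type value in 17 of the 30 members. The brightest, knockout kidney 1-2, gave the highest knockout value in 10 and the lowest in 10. These counts cover the members alone, so they do not show whether other genes differ. The number of animals limits the precision.

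Markers of other kidney cells moved with genotype. For comparison, 9.36% of all genes tested rose and 8.34% fell in knockout. Of 28 tested proximal tubule markers, 24 fell and 0 rose in knockout, and the mean of the list ran from 8.96 to 9.68 in knockout and from 10.13 to 10.49 in wild type on the log2 scale. Of 25 macrophage markers, 24 rose and 0 fell, with list means of 7.94 to 8.62 in knockout and 6.45 to 7.24 in wild type. The wild-type kidneys 2-1 and 2-2 gave the highest wild-type macrophage means. Of 12 interstitial fibroblast markers 8 rose and 0 fell (11.33 to 11.41 in knockout, 11.03 to 11.22 in wild type), and of 4 neutrophil markers 2 rose (4.42 to 4.87 in knockout, 3.78 to 4.85 in wild type). Endothelial markers fell in 5 of 17 (8.46 to 8.68 in knockout, 8.68 to 8.92 in wild type). Markers of thick ascending limb and distal tubule fell in 6 of 14 (8.82 to 9.24 in knockout, 9.35 to 9.54 in wild type). Of 4 erythroid markers, Slc4a1 fell, and the list mean was 4.32 to 4.80 in knockout and 4.48 to 4.90 in wild type. List means are over all markers with a probe set, 9 in each of the erythroid and neutrophil lists. Of all these markers, the erythroid Tspo2 alone lay at the floor on every array of a genotype (7 of 9 knockout and 7 of 7 wild-type arrays). The part of these cells in the results on the 30 genes was not tested.

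Hexokinase 2 rose 3.2-fold in knockout kidneys, and the log2 changes of all other tested members lay between -0.53 and 0.63. Of the 30 genes, 4 rose (Hk2, Eno2, Ddit4 and Pfkp), where 9.36% of all genes tested rose, and 7 fell (Bnip3, Pdk2, Egln3, Aldoc, Pdk1, Vegfa and Pfkm), where 8.34% of all genes tested fell. The remaining 19 did not pass. All calls are from limma with Benjamini-Hochberg adjustment over the 12508 genes at 0.05. The median log2 change was -0.08 over the 30 genes, with 10 above 0 and 20 below. Over all genes tested the median was 0.003, with 6345 above 0 and 6163 below. Arrays of the 2 genotypes did not overlap in Hk2, which was higher in knockout, as in 2.91% of all genes tested. They did not overlap, with knockout lower, in Bnip3 and Pdk2, as in 2.43% of all genes tested. On the deposited signals, left without normalization between arrays, Hk2 was the single member to pass (1 higher and 0 lower). The log2 changes there were close in size to those after normalization for genes that lost their call, such as -0.46 for Bnip3 (-0.48 normalized), -0.38 for Pdk2 (-0.40), 0.65 for Eno2 (0.63) and 0.56 for Ddit4 (0.54).

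**Figure D1:**
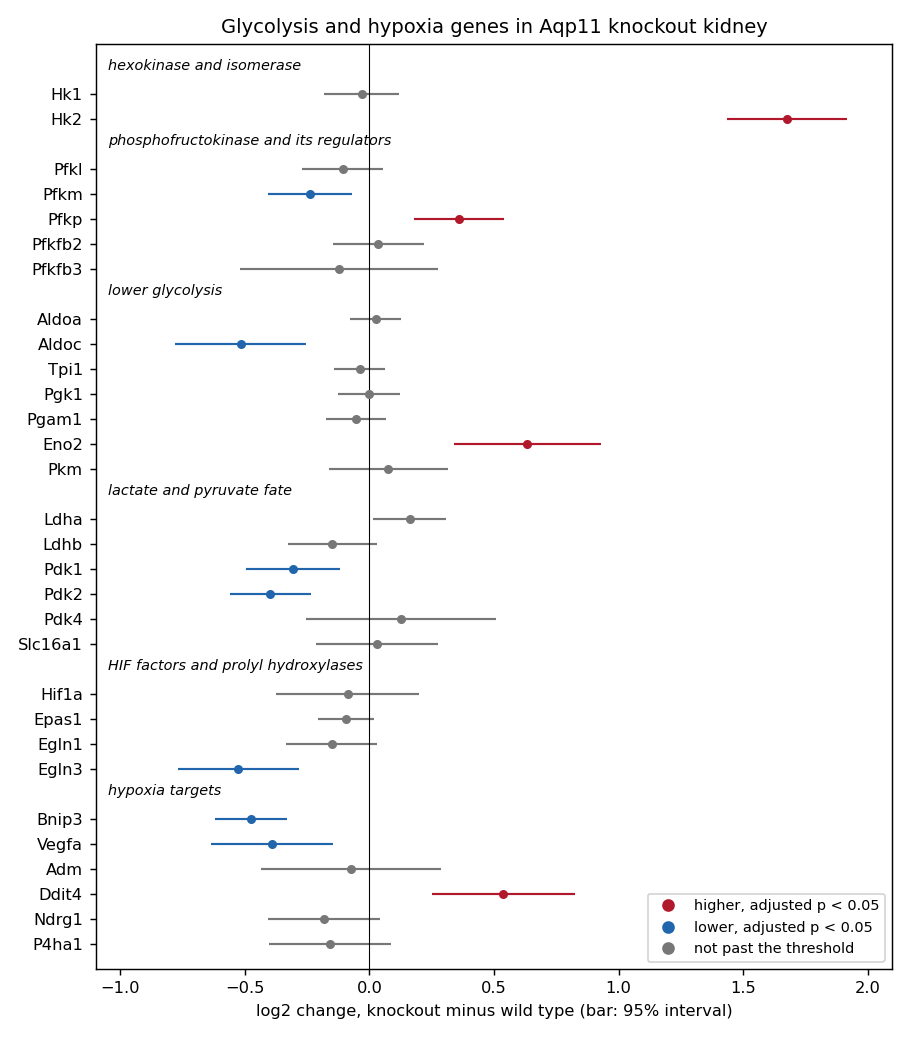
Log2 change of each of the 30 tested genes, knockout minus wild type, with its 95% interval from limma, grouped by role and coloured by call. Hk2 stands apart at 1.68 and the other called genes lie between -0.53 and 0.63.

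Hexokinases trap glucose in the cell as glucose 6-phosphate. Hk2 is the inducible isoform of muscle and fat, low in the normal tubule. Its log2 signal ran from 7.07 through a median of 7.35 to 7.73 in knockout kidneys, and from 5.25 through 5.72 to 6.11 in wild-type kidneys. Every knockout kidney was above every wild-type kidney. Hk2 averaged 7.37 ± 0.20 (SD, n = 9) in knockout and 5.70 ± 0.26 (SD, n = 7) in wild type, 3.2-fold higher (log2 change 1.68, SE 0.12, limma adjusted p = 2.16e-09). Hk1, the isoform most tissues use, ran from 8.85 through 8.96 to 9.16 in knockout and from 8.81 through 9.03 to 9.31 in wild type. The groups overlapped throughout, and the difference of -0.03 did not pass (95% interval -0.18 to 0.12, limma adjusted p = 0.834). The isomerase gene Gpi1 had no probe set in the annotation used here.

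Phosphofructokinase sets the pace of glycolysis and is built from liver (Pfkl), muscle (Pfkm) and platelet (Pfkp) subunits. Pfkp and Pfkm, the subunit genes that passed, had changes of opposite sign. Pfkp ran from 8.40 through 8.64 to 8.84 in knockout and from 8.09 through 8.18 to 8.68 in wild type. All 9 knockout kidneys were above the wild-type mean, with some overlap. Pfkp averaged 8.63 ± 0.13 (SD, n = 9) in knockout and 8.27 ± 0.22 (SD, n = 7) in wild type, 1.28-fold higher (limma adjusted p = 0.0057). Pfkm ran from 8.09 through 8.46 to 8.76 in knockout and from 8.56 through 8.66 to 8.79 in wild type. Of the 9 knockout kidneys 8 lay below the wild-type mean. Pfkm averaged 8.43 ± 0.20 (SD, n = 9) in knockout and 8.67 ± 0.07 (SD, n = 7) in wild type, 1.18-fold lower (limma adjusted p = 0.0473). That call sat at the threshold and held in 2 of 16 fits that each left out 1 kidney (adjusted p 0.0124 to 0.0882). Pfkl had a log2 change of -0.11 (limma adjusted p = 0.407). Pfkfb2 and Pfkfb3 make fructose 2,6-bisphosphate, the activator of phosphofructokinase, and had log2 changes of 0.04 and -0.12 (limma adjusted p = 0.843 and 0.738).

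Of the enzymes of lower glycolysis that most cells carry in abundance, the 5 that entered the fit did not pass. Log2 changes were 0.02 for Aldoa (aldolase A), -0.04 for Tpi1 (triose phosphate isomerase), 0.00 for Pgk1 (phosphoglycerate kinase), -0.05 for Pgam1 (phosphoglycerate mutase) and 0.08 for Pkm (pyruvate kinase, older symbol Pkm2). Their 95% intervals ran from -0.08 to 0.13 for Aldoa, from -0.14 to 0.06 for Tpi1 and from -0.13 to 0.12 for Pgk1. Those of Pgam1 and Pkm ran from -0.17 to 0.07 and from -0.16 to 0.31. The isoforms of brain, Eno2 (neuronal enolase) and Aldoc (aldolase C), were the members of this stretch that passed in the fit, in opposite directions. Eno2 ran from 5.53 through 5.85 to 6.20 in knockout and from 4.84 through 5.31 to 5.60 in wild type. All 9 knockout kidneys were above the wild-type mean, and the groups overlapped slightly. Eno2 averaged 5.84 ± 0.23 (SD, n = 9) in knockout and 5.21 ± 0.27 (SD, n = 7) in wild type, 1.55-fold higher (limma adjusted p = 0.00306). Aldoc ran from 6.83 through 6.99 to 7.52 in knockout and from 7.21 through 7.54 to 8.02 in wild type. All 9 knockout kidneys were below the wild-type mean, with overlap. Aldoc averaged 7.07 ± 0.23 (SD, n = 9) in knockout and 7.59 ± 0.31 (SD, n = 7) in wild type, 1.43-fold lower (limma adjusted p = 0.0059).

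Gapdh, the glyceraldehyde 3-phosphate dehydrogenase used as a housekeeping gene, was measured by 3 control probe sets and by 3 probe sets shared with pseudogenes, and did not enter the fit. The control probe set at its 5′ end ran from 12.68 through 12.78 to 12.88 in knockout and from 12.83 through 12.86 to 12.92 in wild type. The middle one ran from 12.46 through 12.64 to 12.66 in knockout and from 12.62 through 12.68 to 12.74 in wild type, and the one at the 3′ end from 12.23 through 12.45 to 12.58 in knockout and from 12.47 through 12.50 to 12.72 in wild type. The groups overlapped on each. Differences were -0.09 at the 5′ end, -0.08 in the middle and -0.08 at the 3′ end. Exact permutation p-values, two-sided and adjusted over the 3 probe sets, were 0.0270, 0.0320 and 0.149. The shared probe sets had means of 12.94, 5.72 and 5.52 in knockout and 12.98, 5.71 and 5.24 in wild type. On the last of these, shared with Gapdh-ps15, all 9 knockout kidneys lay above the wild-type mean, opposite to the control probe sets, and no test was run on the shared ones. The ratio of 3′ to 5′ signal was 0.801 ± 0.0677 (SD, n = 9) in knockout and 0.790 ± 0.0528 (SD, n = 7) in wild type (exact permutation p = 0.73, two-sided). Eno1, the common enolase, had no probe set in the annotation used here.

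**Figure D2:**
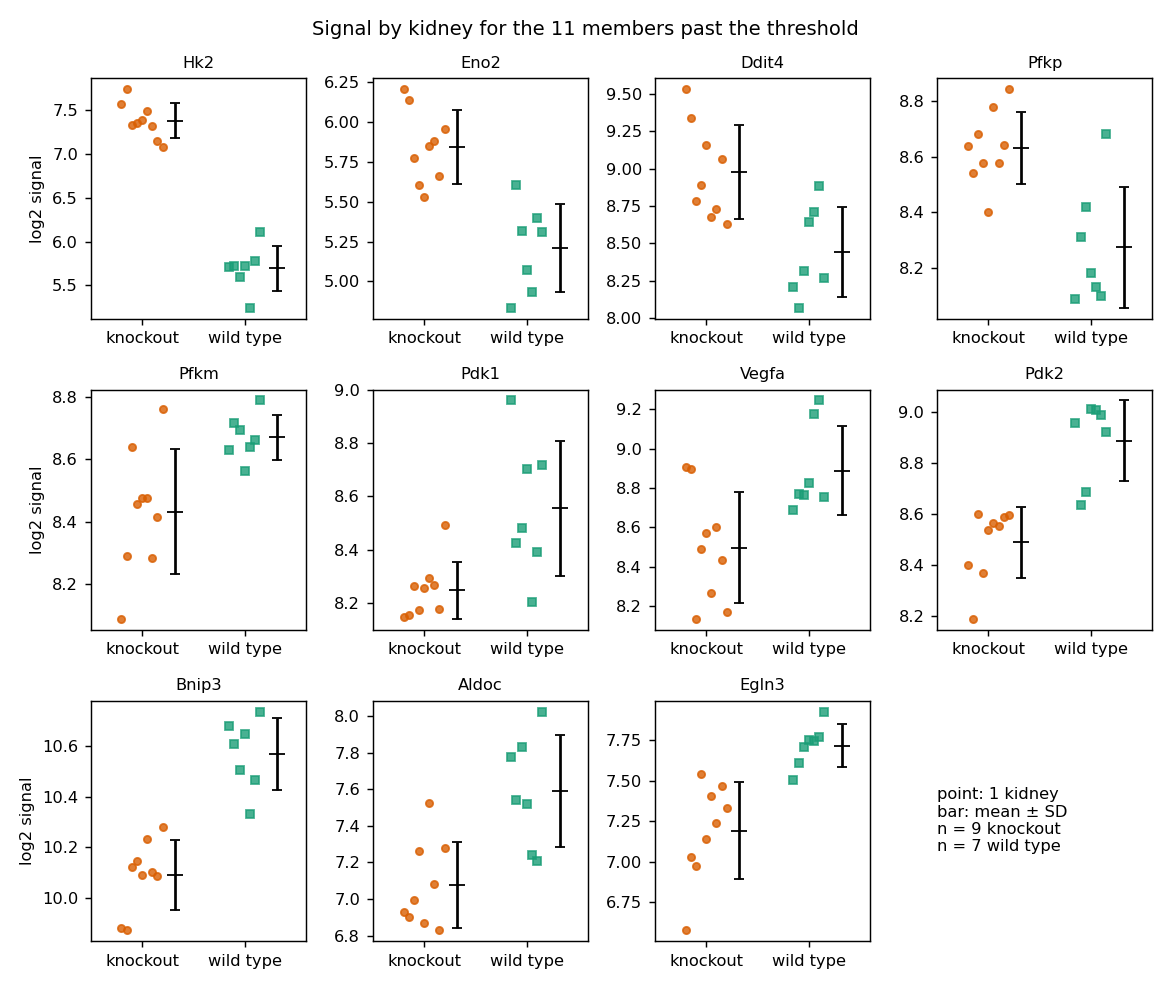
Log2 signal of the 11 genes that passed, 1 point per kidney, with 9 knockout kidneys to the left of 7 wild-type kidneys in each panel and the mean with its SD beside each group. The groups are apart in Hk2, Bnip3 and Pdk2 and overlap in the other 8.

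Among the genes that decide between lactate and mitochondrial oxidation, both kinase genes that passed fell. Pdk1 and Pdk2 encode pyruvate dehydrogenase kinases, which switch the complex off. Pdk2 ran from 8.19 through 8.55 to 8.60 in knockout and from 8.64 through 8.95 to 9.01 in wild type. Every knockout kidney was below every wild-type kidney. Pdk2 averaged 8.49 ± 0.14 (SD, n = 9) in knockout and 8.89 ± 0.16 (SD, n = 7) in wild type, 1.32-fold lower (limma adjusted p = 0.000912). Pdk1, a HIF target, ran from 8.15 through 8.26 to 8.49 in knockout and from 8.21 through 8.48 to 8.96 in wild type. All 9 knockout kidneys were below the wild-type mean. Pdk1 averaged 8.25 ± 0.11 (SD, n = 9) in knockout and 8.56 ± 0.25 (SD, n = 7) in wild type, 1.24-fold lower (limma adjusted p = 0.0222). The call on Pdk1 was lost without wild-type kidney 1-1 (adjusted p = 0.0569) or 3-1 (adjusted p = 0.0536).

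Pdk4, the kinase of fasting, ran from 8.04 through 8.46 to 9.00 in knockout and from 7.45 through 8.58 to 8.91 in wild type. It varied widely within both groups, and its log2 change of 0.13 did not pass (95% interval -0.25 to 0.51, limma adjusted p = 0.714). Ldha encodes the lactate dehydrogenase subunit that favours lactate. It ran from 11.49 through 11.63 to 11.82 in knockout and from 11.30 through 11.53 to 11.81 in wild type. Of the 9 knockout kidneys 8 lay above the wild-type mean, yet the log2 change of 0.16 did not pass (95% interval 0.01 to 0.31, limma adjusted p = 0.131). Without wild-type kidney 5-1 it did, at 0.21 (adjusted p = 0.0234). Ldhb, the subunit of oxidative tissues, had a log2 change of -0.15 (limma adjusted p = 0.269), and Slc16a1, a carrier of lactate and pyruvate, 0.03 (limma adjusted p = 0.904). Slc16a3, the lactate exporter of glycolytic cells, was too dim to test, with 2.78 through 3.86 to 4.94 in knockout and 2.78 through 4.33 to 4.56 in wild type, the lowest value being the floor in 1 array of each.

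The HIF alpha genes themselves did not pass. Hif1a ran from 10.17 through 10.63 to 11.08 in knockout and from 10.18 through 10.76 to 11.05 in wild type, with a log2 change of -0.09 (95% interval -0.38 to 0.20, limma adjusted p = 0.743). Epas1, which encodes HIF-2 alpha, ran from 10.77 through 10.91 to 11.08 in knockout and from 10.91 through 11.02 to 11.16 in wild type, with a log2 change of -0.09 (95% interval -0.21 to 0.02, limma adjusted p = 0.27). HIF alpha is controlled mainly as protein, which these arrays do not measure. With the mean of its 4 probe sets in place of the brightest, Hif1a passed as lower, at -0.23 (adjusted p = 0.02). Of the prolyl hydroxylases, Egln3 is itself induced by HIF. Egln3 ran from 6.58 through 7.24 to 7.54 in knockout and from 7.51 through 7.74 to 7.93 in wild type, and all 9 knockout kidneys were below the wild-type mean. It averaged 7.19 ± 0.30 (SD, n = 9) in knockout and 7.72 ± 0.13 (SD, n = 7) in wild type, 1.44-fold lower (limma adjusted p = 0.00266). Egln1, the main oxygen sensor of most cells, stayed short of the threshold at -0.15 in log2 (limma adjusted p = 0.265).

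Of the 6 tested hypoxia targets, 1 rose and 2 fell, where 9.36% of all genes tested rose and 8.34% fell. Bnip3, a mitochondrial protein of mitophagy and cell death, ran from 9.88 through 10.10 to 10.28 in knockout and from 10.33 through 10.61 to 10.73 in wild type. Every knockout kidney was below every wild-type kidney. Bnip3 averaged 10.09 ± 0.14 (SD, n = 9) in knockout and 10.57 ± 0.14 (SD, n = 7) in wild type, 1.39-fold lower (limma adjusted p = 4.53e-05). Vegfa, the main angiogenic growth factor, ran from 8.14 through 8.49 to 8.91 in knockout and from 8.69 through 8.77 to 9.25 in wild type. Of the 9 knockout kidneys 7 lay below the wild-type mean. Vegfa averaged 8.50 ± 0.28 (SD, n = 9) in knockout and 8.89 ± 0.22 (SD, n = 7) in wild type, 1.31-fold lower (limma adjusted p = 0.0251). The call on Vegfa was lost without wild-type kidney 4-1 (adjusted p = 0.0621) or 4-2 (adjusted p = 0.0643).

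Ddit4, also called REDD1, restrains mTORC1 and answers to HIF, to glucocorticoids and to endoplasmic reticulum stress. It ran from 8.63 through 8.89 to 9.53 in knockout and from 8.07 through 8.32 to 8.88 in wild type. All 9 knockout kidneys were above the wild-type mean. Ddit4 averaged 8.98 ± 0.32 (SD, n = 9) in knockout and 8.44 ± 0.30 (SD, n = 7) in wild type, 1.45-fold higher (limma adjusted p = 0.00891). Its call was lost when wild-type kidneys 2-1 and 2-2 were left out together (adjusted p = 0.0568). Log2 changes that did not pass were -0.07 for Adm (the vasodilator adrenomedullin), -0.18 for Ndrg1 (a stress-responsive gene) and -0.16 for P4ha1 (collagen prolyl hydroxylase), with limma adjusted p = 0.835, 0.281 and 0.418. Bnip3l was measured by 3 probe sets shared with a pseudogene and was not tested. Their means were 10.36, 9.55 and 8.87 in knockout and 10.43, 9.67 and 8.86 in wild type, with overlap on each.

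Several genes had more than 1 probe set. Of 35 further probe sets of the members, 1 rose and 1 fell, where 12.6% of all probe sets tested passed. A second probe set of Pfkp rose by 0.46 in log2 (limma adjusted p = 0.0174). One of the further 3 of Pdk1 fell, with a log2 change of -0.47 (limma adjusted p = 0.00256). The second probe sets of Egln3 (-0.21, limma adjusted p = 0.482) and Vegfa (-0.26, limma adjusted p = 0.152) had the same sign and did not pass. The second probe set of Aldoc was too dim to test, at the floor on 7 of 9 knockout and 5 of 7 wild-type arrays, with means of 2.99 in both genotypes. Hk2, Eno2, Bnip3, Pdk2, Ddit4 and Pfkm have 1 probe set each that names them alone.

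The called genes were then compared within each sex and within the brighter and the dimmer arrays. In males, 7 of the 30 genes passed, where 11.3% of all genes tested did. In females, 3 passed, where 5.44% did. Among the brighter arrays 6 passed (10.7% of all genes), and among the dimmer arrays 5 (9.39% of all genes). Hk2 and Bnip3 passed in each of these 4 subsets. Hk2 had log2 changes of 1.72 in males, 1.69 in females, 1.82 in brighter and 1.56 in dimmer arrays. Bnip3 changed by -0.39 in males, -0.58 in females, -0.61 in brighter and -0.34 in dimmer arrays. Pdk2 passed in males (-0.41) and in both brightness subsets (-0.45 and -0.39). Pfkp and Eno2 passed only in males, and Pfkm only in females. Aldoc and Pdk1 passed only in brighter arrays, and Egln3 only in dimmer arrays. Ldha passed in males, at 0.31 (limma adjusted p = 0.0216).

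**Figure D3:**
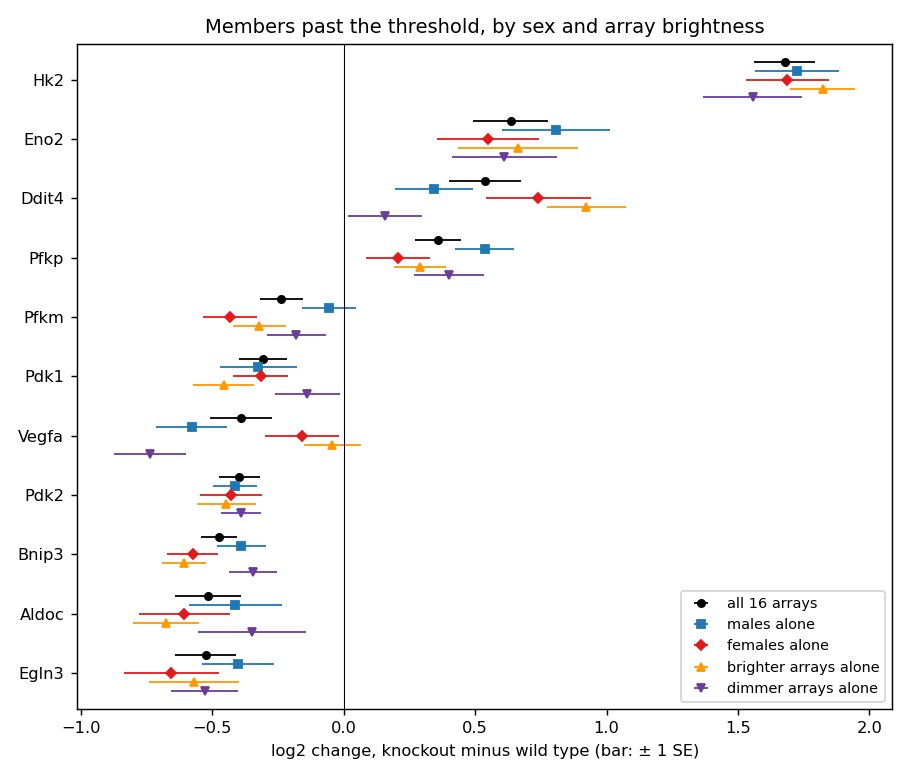
Log2 change, knockout minus wild type, of the 11 genes that passed, over all kidneys, in each sex and in brighter and dimmer arrays, with bars of 1 SE. Each of the 11 genes keeps its sign in these 4 subsets, while Vegfa lies near 0 in brighter arrays (-0.04) and Ddit4 lies nearest to 0 in dimmer arrays (0.16).

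Vegfa and Ddit4 each passed in 1 of the brightness subsets. The log2 difference of Vegfa was -0.04 in brighter arrays (limma adjusted p = 0.838) and -0.74 in dimmer arrays (limma adjusted p = 0.00587). That of Ddit4 was 0.92 in brighter arrays (limma adjusted p = 0.00305) and 0.16 in dimmer arrays (limma adjusted p = 0.539). The interaction of genotype with brightness did not pass for either (adjusted p = 0.274 for Vegfa and 0.288 for Ddit4; unadjusted p = 0.00125 and 0.00269 from limma), and it passed in 0 of the 30 genes and 0% of all genes. Sex and brightness overlapped, since the dimmer arrays held 4 of 5 knockout males, 1 of 4 knockout females, 1 of 3 wild-type males and 2 of 4 wild-type females.

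The interaction of sex with genotype likewise passed in 0 of the 30 genes and 0% of all genes by limma. At an unadjusted p under 0.05 it held in 9 of the 30 (Pfkl, Pfkm, Pfkfb3, Aldoa, Pkm, Ldha, Slc16a1, Hif1a and P4ha1), where 10.8% of all genes did. With brightness as a term it held in 3 (Pfkm, Slc16a1 and P4ha1), where 5.38% of all genes did. In the fit without brightness, Slc16a1 had the smallest p of the 30, with log2 changes of -0.31 in males and 0.33 in females (limma adjusted p of the interaction 0.455). P4ha1 had 0.14 in males and -0.46 in females, with the same adjusted p.

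Other genes of the same pathways were read from lists that do not overlap with the 35. Of 24 tested further genes of glycolysis and pyruvate use, 1 rose and 6 fell, where 9.36% of all genes tested rose and 8.34% fell. Their median log2 change was -0.15. Pcx, pyruvate carboxylase and the entry to gluconeogenesis, fell by 1.00 in log2 (limma adjusted p = 8.9e-07). Slc16a7, a high-affinity carrier of pyruvate and lactate, fell by 0.69 (adjusted p = 1.81e-05), and Ldhd, which oxidises D-lactate, fell by 0.54 (adjusted p = 0.0046). Mpc1, part of the mitochondrial pyruvate carrier, fell by 0.35 (adjusted p = 0.000912), and Pdha1, the catalytic subunit of pyruvate dehydrogenase, fell by 0.15 (adjusted p = 0.0283). Pgm2, a phosphoglucomutase, rose by 0.31 (adjusted p = 0.0124).

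Of 18 further components of the HIF pathway 0 rose and 0 fell by limma, and their median log2 change was 0.03. Of 48 further hypoxia targets 9 rose and 7 fell, with a median of -0.06, set against the same shares of all genes (9.36% and 8.34%). Edn1, the vasoconstrictor endothelin 1, rose by 0.87 (limma adjusted p = 1.09e-05), Nt5e, which makes extracellular adenosine, by 0.63 (adjusted p = 0.000964), and Anxa2, an annexin, by 0.39 (adjusted p = 0.00241). Ak4, a mitochondrial adenylate kinase, fell by 0.83 (adjusted p = 1.17e-06), Selenbp1, a selenium-binding protein, fell by 0.52 (adjusted p = 3.49e-05), and Car12, a membrane carbonic anhydrase, fell by 0.42 (adjusted p = 0.000137).

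**Figure D4:**
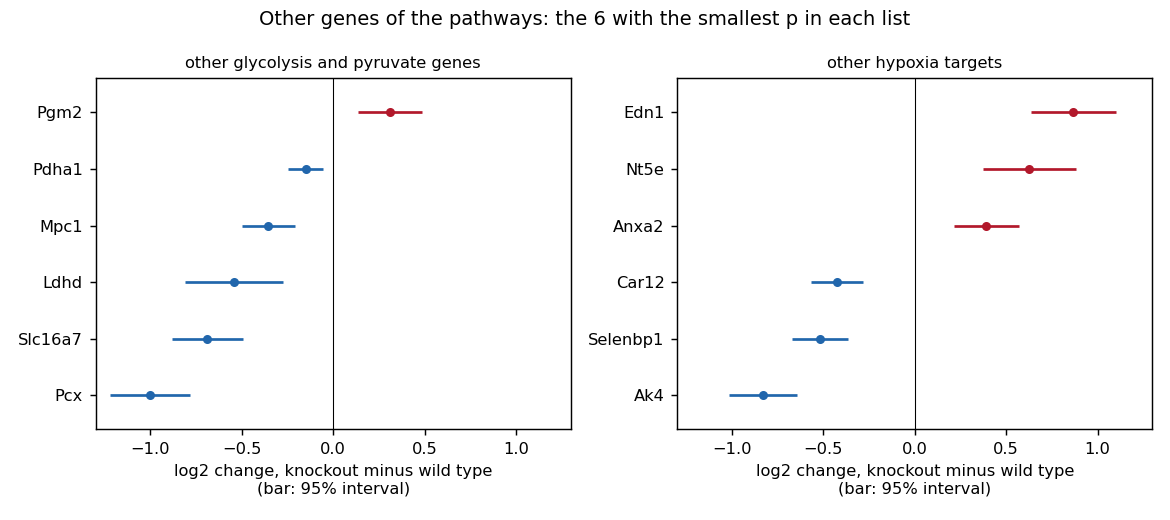
Log2 change, knockout minus wild type, with its 95% interval from limma, of the 6 genes with the smallest p among those that passed in each of 2 further lists, glycolysis and pyruvate use (1 of 6 shown higher) and hypoxia targets (3 of 6 shown higher). Pcx lies lowest on the left, and the highest value is 0.87, for Edn1.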

How the data were processed

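RNA of each whole kidney (3 µg) was hybridised to 1 Affymetrix mouse array, per the labels' protocols. The deposited signal intensity values are linear and came from the authors' use of GCOS 1.3, per the submitters' processing notes. Scaling between arrays is not stated there. Intensities were quantile normalized over 45101 probe sets, raised to a floor at the 20th percentile (6.89) and converted to log2, and 64 control probe sets were dropped. The floor understates changes of dim genes, and quantile normalization hides a change of total mRNA.

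Each gene was read from its brightest probe set naming 1 gene in the platform annotation, and tested where it exceeded the 40th percentile on 7 or more of the 16 arrays. Genotypes were compared with limma 3.58.1 in R 4.3.3 (lmFit, eBayes with a variance trend) and Benjamini-Hochberg adjustment over all genes, and single values by exact permutation over 11440 splits. The fit was tested on simulated data. Members, marker and pathway lists were chosen with earlier results of these data known. Array values are given for members that passed and for Hif1a, Epas1, Hk1, Gapdh, Ldha and Pdk4, also for the untested Slc16a3, and each further list names up to 6 genes by smallest p. The widest gap in trimmed mean divided brighter from dimmer arrays. Same-numbered kidneys were checked for shared deviations and not taken as pairs, since the labels do not say that the number marks a litter. Littermates entered the main fit as independent animals. Alternatives were other scalings, floors, filters, probe-set rules, variance models and covariates, each sex, each brightness group and each array left out. Figures were drawn with matplotlib 3.10.9 in Python 3.11.15.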

Additional observations from a re-analysis of the deposited data

Results flagged for a closer look

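Lone values were looked for in 60 groups (each genotype of the 30 genes), where chance gives about 1 in 20, and 2 were found. Pfkfb2 was 6.39 in log2 in knockout kidney 4-4, while the other 8 knockout kidneys lay between 6.73 and 6.91. Pdk1 was 8.49 in knockout kidney 5-2, while the other 8 lay between 8.15 and 8.30. In both the gap to the nearest kidney exceeded the limit of Dixon's test.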

How the results depend on the processing

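Over 35 settings no gene past the threshold in either fit changed sign. Hk2 passed in all 35 (2.67-fold to 3.53-fold) and Bnip3 in 34, lost with the deposited scaling. Among the 30 genes, the deposited scaling gave 1 higher and 0 lower and 441 genes changed in all (285 higher and 156 lower, against 1171 and 1043). Brighter arrays alone gave 2 higher, 4 lower and 1333 in all, and dimmer arrays alone 1, 4 and 1175. Males alone gave 3 lower and 1417 in all, and females alone 1 higher, 2 lower and 681 in all. These subsets hold fewer arrays. Leaving out 1 kidney at a time gave 4 to 5 higher, 5 to 7 lower and 1858 to 2209 genes in all. With the first sample number as a replicate block, 4 members were higher and 7 lower, with 2654 genes in all. Same-numbered kidneys of the 2 genotypes correlated over 0.1 in 3 of 5 numbers, and 3 of 5 matched their own number best. Aldoc was lost with the mean of its probe sets (-0.26, adjusted p = 0.201), Pdk1 with median centring (adjusted p = 0.0554) and Vegfa without the filter on dim genes (adjusted p = 0.0555). Pfkm was the least stable call and held in 13 of 35 settings. Among others it was lost with median centring (limma adjusted p = 0.128), without the filter (0.06) and without the variance trend (0.0564). Eno2 was tested in 34 settings, being too dim for the filter at the 60th percentile. Leaving out wild-type kidneys 2-1 and 2-2 together, and brightness as an interacting term, were chosen after seeing the data. For arrays, the number of animals and the signal over background of dim genes such as Slc16a3 limit the precision.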
